A study of Homo sapiens with 6 samples.

Results

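Mitochondrial ribosomal proteins are the protein components of the ribosome that translates the messages encoded in mitochondrial DNA. Their transcripts were compared between RWPE-1 cells that received LNA-205, as replicates D, E and F, and RWPE-1 cells that received LNA-Scr, as replicates A, B and C. RWPE-1 is a human prostate epithelial line that was immortalised and does not form tumours, and both groups are cultures of this 1 line. LNA-205 is a locked nucleic acid oligomer antisense to the microRNA miR-205, and LNA-Scr is a scrambled oligomer. Both were transfected at 100 nM, in triplicate, and RNA was taken after 72 h and hybridised to 1 single-colour Illumina bead array per sample. Members were all probes whose annotated gene symbol begins with MRPL or MRPS followed by a digit. This gave 113 probes for 78 symbols, of which 2 are pseudogenes (MRPL42P5 and MRPS31P5). Kept probes had a detection p (a comparison with the negative control beads) below 0.01 on 3 or more of the 6 arrays. That left 101 member probes of 75 genes, among 13423 kept probes (8952 named genes) of 48799 with values. Each of the 101 was detected on all 6 arrays, so none was kept through 1 group alone. The 12 probes not kept were detected on 0 to 2 arrays, and they left MRPS14 and both pseudogenes without a measured probe.

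The mitochondrial ribosome has a large subunit, which forms peptide bonds, and a small subunit, which reads the messenger RNA. All of its proteins are encoded in the nucleus, made in the cytosol and imported, and they assemble on ribosomal RNAs made inside the mitochondrion. Its products are core subunits of the respiratory chain and ATP synthase, so dividing epithelial cells depend on it for oxidative phosphorylation. Some of its proteins have a counterpart in bacteria and others are found only in mitochondrial ribosomes. Of the measured genes, 50 belong to the large subunit (69 probes) and 25 to the small subunit (32 probes). MRPS18A and MRPS30 carry a small-subunit name but are large-subunit proteins, and they are counted there.

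The microRNA that LNA-205 is directed against is shown because the groups differ in the oligomer they were given. A microRNA lowers the messages it pairs with mainly through its seed, printed in capitals (bases 2 to 8). The mature sequence is from RefSeq (GRCh38.p14), at chr1:209432166-209432187 on the plus strand, and is given 5′ to 3′. Target sites in member transcripts were not searched, and silencing of mature miR-205 was not read by these arrays.
hsa-miR-205-5p: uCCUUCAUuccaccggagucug

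Promoter letters, which the choice of members did not use, were found in some of the member genes. RefSeq windows of 300 bases (250 before to 50 after the first listed start, GRCh38.p14) were available for 67 of the 75 measured genes. The letters CCGGAAG, bound by ETS factors such as GABPA, occurred on either strand in 28 of the 67 member windows (41.8%), and in 14.2% of 15843 protein-coding windows. The letters AAGATGGCG, bound by YY1, occurred in 13 member windows (19.4%) and in 2.74% of protein-coding windows. The palindromic motif of NRF1, a regulator of nuclear genes for mitochondria, occurred on either strand in 8 member windows (11.9%) and in 8.58% of protein-coding windows. The letters CCAAT were found in 19 member windows (28.4%), against 36.4% of protein-coding windows. The TATA letters TATAAA were found in 2 member windows (2.99%), against 9.63% of protein-coding windows. Both the ETS and the YY1 letters stood in 4 member windows, and 25 had none of the ETS, YY1 and NRF1 letters. The member windows belong to detected genes, while the protein-coding windows were not limited to genes detected here, and the part of this in the shares was not tested. These shares describe letters in a window and do not show that a factor bound there.

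The windows printed below belong to the 2 genes with the smallest p among members with a higher mean in LNA-205 (MRPL33 and MRPL47) and the 2 with the smallest p among those with a lower mean (MRPS2 and MRPS18A). Capitals mark the ETS letters, at bases 243 to 249 in MRPL33, 212 to 218 in MRPL47 and 220 to 226 in MRPS18A. Capitals also mark the YY1 letters of MRPS18A, at bases 260 to 268, and the marked stretches do not overlap. Bases are counted from the 5′ end of the window. The MRPS2 window, 1 of 2 listed for that gene, holds none of the marked letters. ETS letters thus stand in windows of genes with a positive and with a negative difference, none of which passed the test described below.
MRPL33 promoter, chr2:27771469-27771768, plus strand: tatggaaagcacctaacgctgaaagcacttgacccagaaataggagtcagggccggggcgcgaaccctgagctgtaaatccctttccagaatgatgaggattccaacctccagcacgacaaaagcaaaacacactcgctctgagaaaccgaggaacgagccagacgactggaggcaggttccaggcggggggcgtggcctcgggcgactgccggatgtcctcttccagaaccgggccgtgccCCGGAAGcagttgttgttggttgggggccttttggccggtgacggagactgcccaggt
MRPL47 promoter, chr3:179604589-179604888, minus strand: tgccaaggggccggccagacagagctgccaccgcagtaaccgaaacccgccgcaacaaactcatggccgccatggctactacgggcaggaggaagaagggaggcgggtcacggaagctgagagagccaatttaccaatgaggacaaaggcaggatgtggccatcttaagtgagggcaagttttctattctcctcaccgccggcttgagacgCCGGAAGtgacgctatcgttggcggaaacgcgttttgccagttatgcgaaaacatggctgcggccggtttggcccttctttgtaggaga
MRPS2 promoter, chr9:135500432-135500731, plus strand: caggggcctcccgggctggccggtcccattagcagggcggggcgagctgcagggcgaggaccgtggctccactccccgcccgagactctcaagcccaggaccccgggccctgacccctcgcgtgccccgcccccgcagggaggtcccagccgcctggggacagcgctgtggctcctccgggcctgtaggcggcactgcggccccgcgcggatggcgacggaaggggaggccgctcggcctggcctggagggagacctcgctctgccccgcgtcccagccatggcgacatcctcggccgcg
MRPS18A promoter, chr6:43687742-43688041, minus strand: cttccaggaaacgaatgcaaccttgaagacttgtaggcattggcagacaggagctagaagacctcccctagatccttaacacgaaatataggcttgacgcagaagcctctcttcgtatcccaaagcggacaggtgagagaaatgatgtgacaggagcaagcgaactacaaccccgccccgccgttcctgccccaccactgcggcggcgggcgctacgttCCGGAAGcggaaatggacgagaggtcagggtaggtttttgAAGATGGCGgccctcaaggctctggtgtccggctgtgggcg

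Over the 28 genes whose window holds the ETS letters, the median log2 difference of the brightest probe (LNA-205 minus LNA-Scr) was 0.0091, with 15 of 28 positive. Over the 39 without them it was −0.00099, with 19 of 39 positive. For the 13 genes with YY1 letters the median was −0.013, from −0.29 to 0.09, with 5 of 13 positive, against 0.016 for the 54 without. The windows with and without these letters thus cover overlapping ranges of difference, and no test was made of them.

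The 6 arrays detected between 12585 and 14195 probes each, and 101 or 102 of the 113 member probes. Of 8 basal epithelial marker genes, each of the 6 that the array annotation names (KRT5, KRT14, ITGA6, ITGB4, LAMB3 and DSG3) was detected. The mean of these markers over an array lay between 12.69 and 12.79 in LNA-205 and between 12.63 and 12.76 in LNA-Scr, on the normalized log2 scale. None of 6 fibroblast or 3 endothelial marker genes was detected. Of 6 immune genes, CD14 and CD68 were, with log2 differences of 0.31 and 0.20 that did not pass the test, while PTPRC, CD3E, CD79A and ITGAM were not detected. The mean of CD14 and CD68 lay between 9.93 and 9.998 in LNA-205 and between 9.50 and 9.93 in LNA-Scr, and their part in the results was not tested. Of 9 luminal genes KRT8 and KRT18 were detected and the secretory markers KLK2, KLK3, ACP3 and MSMB were not.

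No mitochondrial ribosomal protein transcript passed the test between LNA-205 and LNA-Scr. Differences were tested with limma across all 13423 kept probes, with Benjamini-Hochberg adjustment over all of them and a threshold of 0.05. Of the 101 member probes, 0 passed in either direction, and the share of all kept probes that passed was 0% (0 of 13423). The smallest adjusted p among members was 0.692. Before adjustment, 3 member probes (2.97%) had a limma p below 0.05, against 6.21% of all kept probes. Of these, 2 were higher in LNA-205 (3.19% of all kept probes) and 1 lower (3.02%). The values of the 2 groups did not overlap for 12 member probes (11.9%) and for 11.9% of all kept probes. Of the 12, 7 were higher in LNA-205 (6.26% of all kept probes) and 5 lower (5.68%). Neither share was above that of the whole array, so neither is a result about these genes.

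The members lay close to 0 as a set. Their median log2 difference was −0.00902, beside −0.000325 over all kept probes, with 46 members positive and 55 negative. The member differences ran from −0.29 (MRPS18A) to 0.41 (MRPL33), and their interquartile range from −0.09 to 0.09. For all kept probes the interquartile range ran from −0.11 to 0.11 and the extremes from −1.72 to 1.36. The 95% interval of the difference lay wholly between −0.5 and 0.5 for 91 of the 101 member probes (90.1%), and for 65.7% of all kept probes. It did so for 87.4% of cytosolic ribosomal protein probes and for 85.4% of respiratory chain and ATP synthase probes. The interquartile ranges of these 2 sets ran from −0.04 to 0.08 and from −0.03 to 0.13. The median standard error was 0.117 for members and 0.133 for all kept probes. Member probes were also brighter, with a median normalized log2 intensity of 11.46 against 9.82, and the part of brightness in the smaller errors was not tested. In extracts of whole cultures, fewer cells of a type and less RNA per cell cannot be told apart.

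**Figure D1:**
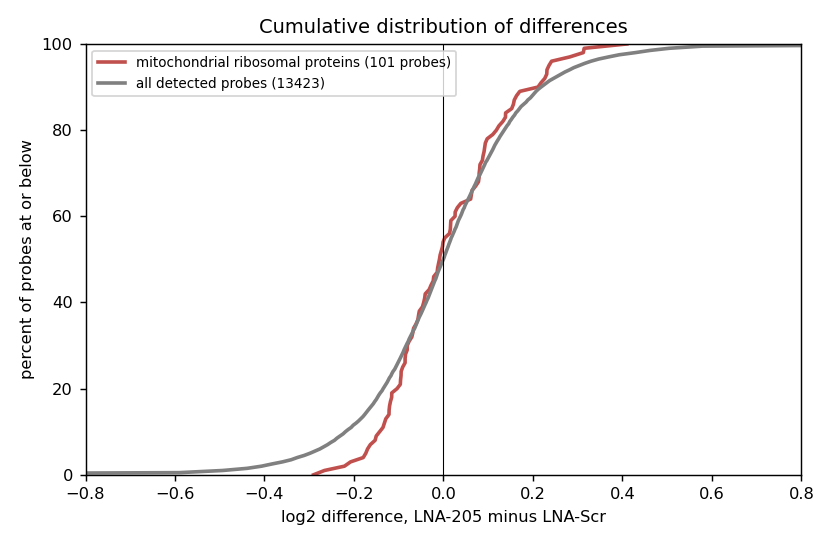
Cumulative distribution of log2 differences (LNA-205 minus LNA-Scr, horizontal axis, cropped at both ends), with the percent of probes at or below each difference on the vertical axis. The red line (101 member probes) spans −0.29 to 0.41 and the grey line (13423 kept probes) has longer tails on both sides. The lines cross near −0.07 and again between 0.05 and 0.08, and at 0 the red line lies above the grey line.

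**Figure D2:**
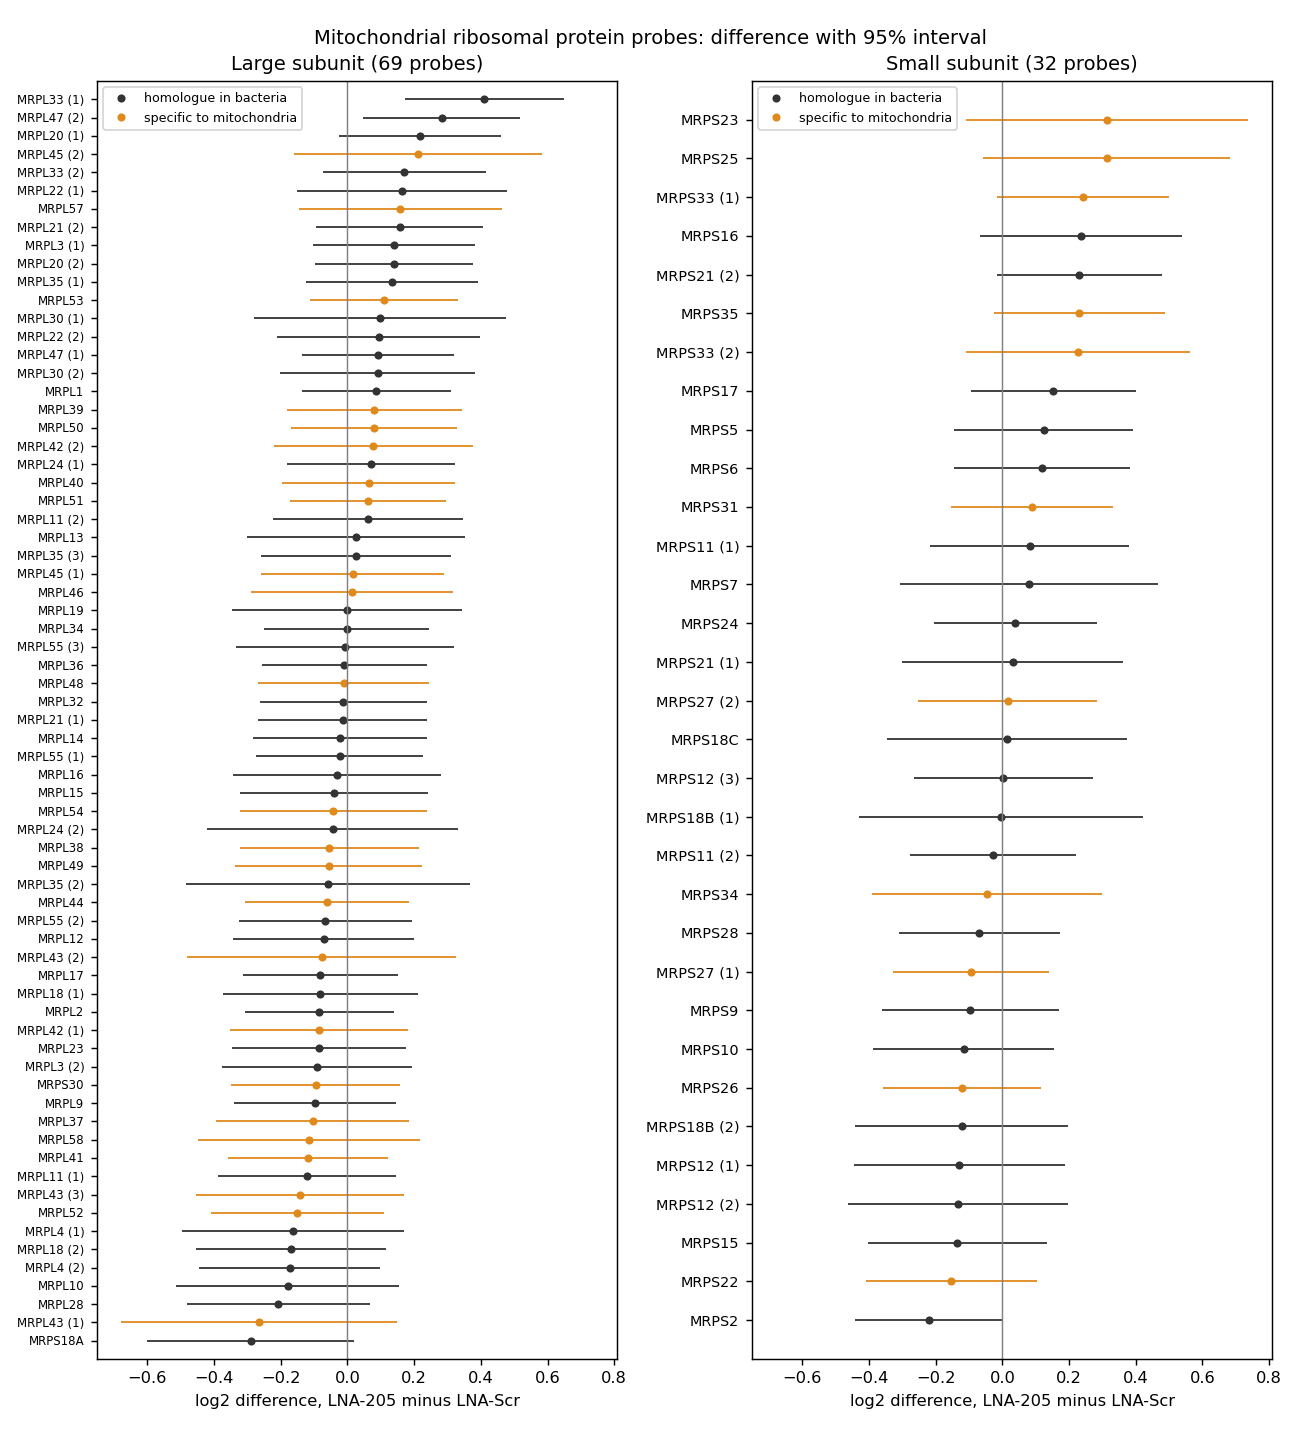
Log2 difference (LNA-205 minus LNA-Scr) of every measured member probe with its 95% limma interval, 69 large-subunit probes on the left and 32 small-subunit probes on the right, sorted by size. Black marks proteins with a bacterial counterpart and orange those specific to mitochondria, a number in brackets separates probes of 1 gene, and the intervals of nearly all probes cross 0.

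Among large-subunit proteins with a bacterial counterpart (45 probes of 30 genes), 18 probes had a higher and 27 a lower mean in LNA-205, with a median log2 difference of −0.013. None passed the test. MRPL33, the counterpart of bacterial L33, had the smallest p of all members. Its brighter probe read 13.18, 13.03 and 13.04 in LNA-205 replicates D, E and F, against 12.62, 12.66 and 12.74 in LNA-Scr replicates A, B and C. Each LNA-205 value was thus above each LNA-Scr value. The mean was 13.08 ± 0.08 in LNA-205 and 12.67 ± 0.06 in LNA-Scr (SD, n = 3 each). This is a log2 difference of 0.41 with SE 0.10 and a 95% interval from 0.17 to 0.65. The level was 1.33-fold higher in LNA-205, with a limma p of 0.00412 before and 0.692 after adjustment. A second MRPL33 probe read 11.67, 11.54 and 11.61 in LNA-205, against 11.36, 11.40 and 11.55 in LNA-Scr. Its groups overlapped narrowly, since replicate E lay below LNA-Scr replicate C, and its log2 difference was 0.17 (SE 0.11, limma adjusted p = 0.842).

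MRPL47, the counterpart of bacterial L29 at the rim of the peptide exit tunnel, read 10.14, 10.20 and 10.14 in LNA-205, against 9.80, 9.85 and 9.98 in LNA-Scr. The groups did not overlap, and the log2 difference of this probe was 0.28 (SE 0.10, limma adjusted p = 0.772). The brighter MRPL47 probe gave 0.09. MRPL20, whose bacterial counterpart acts early in assembly of the large subunit, read 12.17, 12.16 and 12.23 in LNA-205, against 11.99, 11.85 and 12.06 in LNA-Scr. These values did not overlap either, with a log2 difference of 0.22 (SE 0.11, limma adjusted p = 0.804), and the second MRPL20 probe gave 0.14.

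On the lower side, MRPS18A, a large-subunit protein of the bacterial S18 family, read 9.53, 9.48 and 9.51 in LNA-205, against 9.84, 9.54 and 10.01 in LNA-Scr. The LNA-205 values lay within a narrow band while the LNA-Scr values were spread, and replicate B of LNA-Scr was only just above replicate D of LNA-205. MRPS18A had a log2 difference of −0.29 with SE 0.14, a 95% interval from −0.60 to 0.02 and a limma adjusted p of 0.804, and it was −0.18 without LNA-Scr replicate C. MRPL28 read 9.88, 10.16 and 10.18 in LNA-205, against 10.21, 10.33 and 10.30 in LNA-Scr, a log2 difference of −0.21 (SE 0.12, limma adjusted p = 0.827) without overlap. Without LNA-205 replicate D, the lowest array for MRPL28, it was −0.11. MRPL4, which lines the exit tunnel, had log2 differences of −0.17 and −0.16 from its 2 detected probes, each with overlapping groups, and the first was −0.092 without LNA-205 replicate F.

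The lateral stalk recruits translation factors to the ribosome. MRPL12, the stalk protein itself, read 12.02, 11.76 and 12.07 in LNA-205, against 11.98, 12.07 and 12.01 in LNA-Scr, a log2 difference of −0.07 (SE 0.12). MRPL10, which anchors the stalk, read 10.19, 10.02 and 10.53 in LNA-205, against 10.53, 10.35 and 10.40 in LNA-Scr. Its log2 difference was −0.18 (SE 0.15), and replicate F of LNA-205 came close to the highest LNA-Scr value. It was −0.067 without LNA-205 replicate E and −0.32 without LNA-205 replicate F. MRPL11, at the base of the stalk, had log2 differences of 0.06 and −0.12 from its 2 detected probes. MRPL2 and MRPL3, which lie beside the peptidyl transferase centre, had log2 differences of −0.08 (MRPL2) and of 0.14 and −0.09 (the 2 detected MRPL3 probes). None of these stalk and centre proteins passed the test, and MRPL2 was the 1 among them whose groups did not overlap.

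Large-subunit proteins specific to mitochondria gave 24 probes of 20 genes, 10 with a higher and 14 with a lower mean in LNA-205, and a median log2 difference of −0.048. None passed the test, and the groups did not overlap for 1 probe (4.17%, against 11.9% of all kept probes), that of MRPL53. MRPL53 read 10.75, 10.77 and 10.81 in LNA-205, against 10.62, 10.68 and 10.70 in LNA-Scr, a log2 difference of 0.11 (SE 0.10). MRPL43 had 3 detected probes, all with a lower mean in LNA-205. The dimmest of them read 7.74, 7.74 and 7.68 in LNA-205, against 7.64, 8.38 and 7.94 in LNA-Scr, and had a log2 difference of −0.27 (SE 0.18, limma adjusted p = 0.856). The high LNA-Scr value was replicate B, and the LNA-Scr group covered the whole LNA-205 range. Without LNA-Scr replicate B the difference was −0.067, and without LNA-Scr replicate A it was −0.44. The other MRPL43 probes gave −0.14 and −0.08. MRPL45, which ties the ribosome to the inner membrane, had log2 differences of 0.21 and 0.02 from its 2 probes. MRPL58, which can release stalled peptides from the ribosome, had a log2 difference of −0.12 (SE 0.14), and MRPL41 one of −0.12 (SE 0.10).

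The small subunit gave 32 probes of 25 genes, 18 with a higher and 14 with a lower mean in LNA-205, and a median log2 difference of 0.016. In the part with a bacterial counterpart (21 probes of 16 genes) the median was 0.0029. MRPS2, the counterpart of bacterial S2, read 11.59, 11.62 and 11.59 in LNA-205, against 11.81, 11.79 and 11.86 in LNA-Scr. Values within each group lay close together and the groups did not overlap. The mean was 11.60 ± 0.02 in LNA-205 and 11.82 ± 0.04 in LNA-Scr (SD, n = 3 each). MRPS2 thus had a log2 difference of −0.22 with SE 0.10, and a limma p of 0.0497 before and 0.795 after adjustment. MRPS21 read 11.52, 11.69 and 11.50 in LNA-205, against 11.38, 11.26 and 11.38 in LNA-Scr, a log2 difference of 0.23 (SE 0.11, limma adjusted p = 0.804) without overlap. A brighter MRPS21 probe gave 0.03. MRPS16, loss of which causes a combined respiratory chain deficiency, had a log2 difference of 0.24 (SE 0.13), or 0.14 without LNA-Scr replicate A, and its groups overlapped. MRPS12, which sits at the decoding site, had log2 differences of 0.0029, −0.13 and −0.13 from its 3 detected probes.

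Among small-subunit proteins specific to mitochondria (11 probes of 9 genes), 7 probes had a higher and 4 a lower mean in LNA-205, with a median log2 difference of 0.09. None passed the test, and the groups did not overlap for 3 probes (27.3%, against 11.9% of all kept probes). MRPS33 read 12.14, 12.30 and 12.14 in LNA-205, against 11.89, 11.87 and 12.08 in LNA-Scr. No LNA-205 value reached down to an LNA-Scr value, and the log2 difference was 0.24 (SE 0.11, limma adjusted p = 0.804). A second, dimmer MRPS33 probe gave 0.23 with overlapping groups. MRPS35 read 11.34, 11.16 and 11.09 in LNA-205, against 11.03, 10.96 and 10.90 in LNA-Scr, a log2 difference of 0.23 (SE 0.11) without overlap. MRPS23 and MRPS25 each had a log2 difference of 0.31, with wide errors (SE 0.18 and 0.16). Without LNA-Scr replicate B that of MRPS23 was 0.12, and without LNA-205 replicate F that of MRPS25 was 0.17. MRPS23 read 10.76, 11.15 and 11.06 in LNA-205, against 10.88, 10.30 and 10.86 in LNA-Scr. LNA-Scr replicate B was the lowest value and LNA-205 replicate D lay below the other LNA-Scr values. MRPS22, a disease gene of mitochondrial translation, had a log2 difference of −0.15 (SE 0.11), and MRPS26 one of −0.12 (SE 0.10) without overlap. MRPS27, a protein with pentatricopeptide repeats, had 0.02 and −0.09 from its 2 probes.

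**Figure D3:**
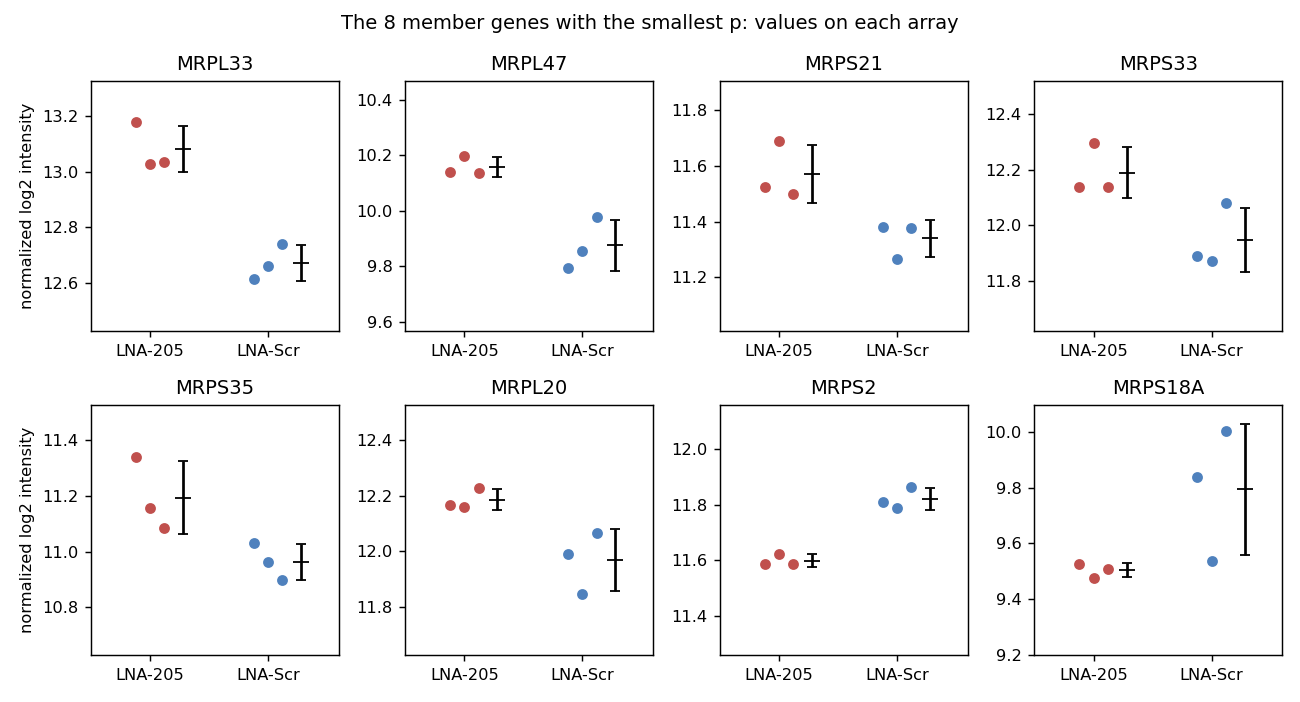
Normalized log2 intensity on each array for the 8 member genes with the smallest unadjusted p (1 probe each), with LNA-205 replicates D, E and F in red on the left and LNA-Scr replicates A, B and C in blue on the right, in that order. The black bar is the mean ± SD (n = 3), every panel spans 0.9 log2 units, and in each panel the groups do not overlap, narrowly so for MRPS18A.

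The bacterial S18 family has 3 human members. MRPS18A is built into the large subunit and MRPS18B and MRPS18C into the small subunit. MRPS18A had the log2 difference of −0.29 given above. The brighter MRPS18B probe read 12.88, 12.56 and 12.87 in LNA-205, against 12.73, 13.07 and 12.88 in LNA-Scr, a log2 difference of −0.12 (SE 0.14). It was −0.017 without LNA-205 replicate E and −0.20 without LNA-Scr replicate A. The other MRPS18B probe gave −0.0046 (SE 0.18). MRPS18C read 13.27, 13.57 and 13.61 in LNA-205, against 13.74, 13.39 and 13.27 in LNA-Scr, a log2 difference of 0.02 (SE 0.16) whose sign is not settled. With median centring it was −0.019, beside −0.29 for MRPS18A and −0.15 and −0.0081 for the MRPS18B probes. For both small-subunit paralogues the groups overlapped, though only over part of their range for the brighter MRPS18B probe. Differences between the 3 genes were not tested.

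Where a gene had several detected probes, these bear on how far a difference of 1 probe can be read. Of 22 such genes, 13 had probes that all pointed the same way and 9 had probes of opposite sign. The gap between the highest and lowest probe of a gene had a median of 0.126 log2 units, close to the median standard error, and reached 0.239 for MRPL33. Across these 22 genes the differences of the 2 brightest probes had a Pearson correlation of 0.50 and a Spearman correlation of 0.44. Both probes of a gene were read on the same arrays, so this is a description across genes and not a replicate check. The genes with the same sign in all probes were MRPL20, MRPL22, MRPL30, MRPL33, MRPL45, MRPL47, MRPS21 and MRPS33 on the higher side. MRPL4, MRPL18, MRPL43, MRPL55 and MRPS18B were those on the lower side. The 9 with opposite signs were MRPL3, MRPL11, MRPL21, MRPL24, MRPL35, MRPL42, MRPS11, MRPS12 and MRPS27.

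**Figure D4:**
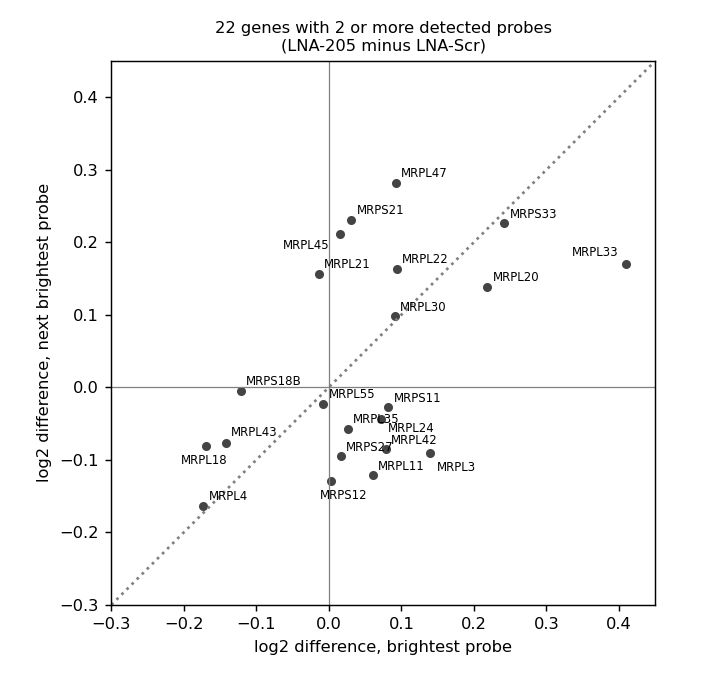
Log2 difference (LNA-205 minus LNA-Scr) of the brightest probe (horizontal axis) and of the next brightest probe (vertical axis) for each of the 22 member genes with several detected probes, with the dotted line marking equal values. MRPL33 and MRPS33 lie in the upper right with both probes positive, and genes in the lower right and upper left quadrants have probes of opposite sign.

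The member medians of the arrays overlapped between the groups. After each probe was centred on its own mean, the median over the 101 member probes was 0.029, −0.011 and −0.00011 in LNA-205 replicates D, E and F, against 0.00087, −0.048 and 0.021 in LNA-Scr replicates A, B and C. LNA-Scr replicate B was the lowest array, and the LNA-205 medians lay within the LNA-Scr range apart from replicate D, which was slightly above it. For the small subunit, LNA-Scr replicate B stood at −0.077 and the other 5 arrays between 0.0086 and 0.043. For the large subunit, LNA-205 arrays stood between −0.018 and 0.033 and LNA-Scr arrays between −0.034 and 0.046. LNA-Scr replicate B held the lowest value of 24 of the 101 member probes (23.8%), while it held the lowest value of 17.1% of all kept probes. The standard deviation of the log2 difference between 2 arrays over member probes was 0.178 to 0.225 within a group and 0.197 to 0.230 across groups. Without LNA-Scr replicate C the median log2 difference of the members was 0.034, and without LNA-205 replicate D it was −0.036.

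**Figure D5:**
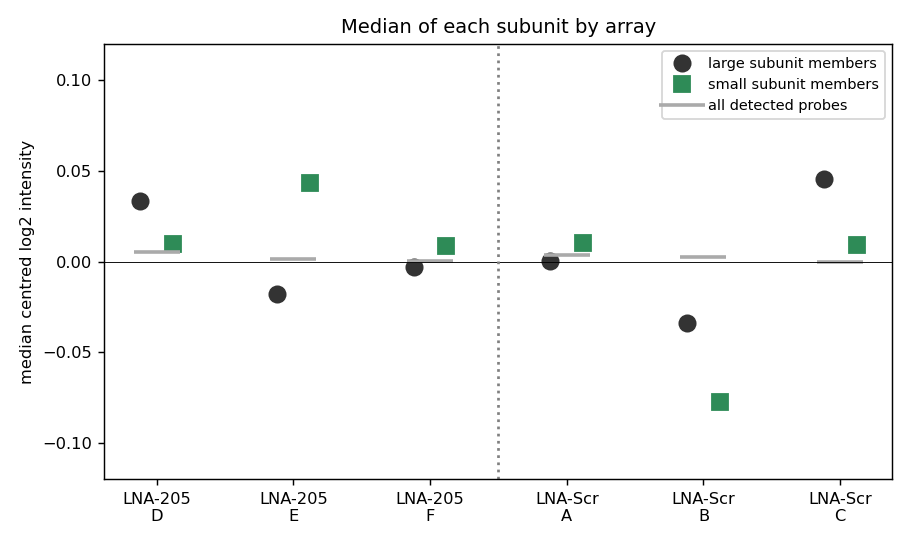
Median over probes of the centred log2 intensity (each probe minus its mean over the 6 arrays) on each array, for large-subunit members (black circles), small-subunit members (green squares) and all kept probes (grey bars). LNA-205 arrays are left of the dotted line and LNA-Scr arrays right of it, and LNA-Scr replicate B is lowest for both subunits.

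Other genes of mitochondrial translation were read from the brightest probe of each gene. Over all genes and unnamed probes taken this way, the median log2 difference was −0.00075. Among subunits that the symbol rule does not reach, GADD45GIP1 had a log2 difference of 0.41 with a standard error of 0.28 (limma adjusted p = 0.857), DAP3 one of −0.06 (SE 0.13) and CHCHD1 one of −0.0087 (SE 0.098). GADD45GIP1 averaged 9.05 ± 0.27 in LNA-205 and 8.64 ± 0.59 in LNA-Scr (SD, n = 3 each), and the SD of the LNA-Scr values was larger than the difference. Of 11 mitochondrial translation factors 10 were measured, 3 with a higher and 7 with a lower mean in LNA-205, with a median of −0.042. TSFM, the exchange factor for the elongation factor TUFM, had 0.22 (SE 0.11, limma adjusted p = 0.804) and MTIF3, an initiation factor, 0.17 (SE 0.10). TUFM itself had −0.07 (SE 0.11). None of the 10 passed the test.

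Of 24 assembly factors 20 were measured, 8 higher and 12 lower, with a median of −0.021 and 0 past the test. METTL17 had the smallest p among them, with a log2 difference of −0.40 (SE 0.12, limma adjusted p = 0.743), but a second METTL17 probe gave 0.48. RBFA, which acts on the small subunit, had −0.30 (SE 0.16). Of 19 mitochondrial aminoacyl-tRNA synthetases, which charge the transfer RNAs, 16 were measured, 6 higher and 10 lower, with a median of −0.062. NARS2 had −0.35 (SE 0.12, limma adjusted p = 0.743) and EARS2 −0.33 (SE 0.14, limma adjusted p = 0.795), both without overlap of the groups. Of 17 genes of mitochondrial transcription and RNA handling 16 were measured, 8 in each direction, with a median of 0.0012. ELAC2, which trims transfer RNA ends, had −0.26 (SE 0.10, limma adjusted p = 0.789) and MTO1, which modifies transfer RNAs, 0.15 (SE 0.13). Of 8 nuclear regulators 6 were measured, 3 in each direction. PPARGC1B, a coactivator of mitochondrial genes, had 0.23 (SE 0.12) and GABPA, an ETS factor, 0.21 (SE 0.16), while NRF1 and PPARGC1A were not detected. No gene of these lists passed the test.

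Some members lie head to head with another gene. In the RefSeq windows, 17 of 67 member genes (25.4%) had the start of a protein-coding gene on the other strand within 1000 bases upstream, and 10.3% of 15843 protein-coding genes did. Here too the protein-coding genes were not limited to detected ones. MRPL46 and MRPS11, a protein of each subunit, start 320 bases apart. Their brightest probes had log2 differences of 0.01 (SE 0.13) and 0.08 (SE 0.13). MRPS12 and SARS2, the mitochondrial seryl-tRNA synthetase, start 181 bases apart and had 0.0029 (SE 0.12) and −0.12 (SE 0.14). MRPS18C lies 175 bases from HELQ, a DNA helicase, which had a log2 difference of −0.50 (SE 0.13, limma adjusted p = 0.692), while MRPS18C had 0.02. MRPL18 lies 210 bases from TCP1, a subunit of the cytosolic chaperonin, and they had −0.17 (SE 0.12) and −0.12 (SE 0.11). None of these partners passed the test.

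Values of other large complexes of translation and oxidative phosphorylation stand beside the member median of −0.00902. Cytosolic ribosomal proteins (119 probes) had a median log2 difference of 0.015, with 66 probes positive and 53 negative. Respiratory chain and ATP synthase genes (89 probes) had a median of 0.038, with 61 positive and 28 negative. LNA-Scr replicate B was the lowest array for both of those sets too, at −0.056 and −0.087 on the centred scale. None of these probes passed the test, and differences between the sets were not tested.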

How the data were processed

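Gene expression was measured in 6 RWPE-1 cultures, 3 given LNA-205 and 3 given LNA-Scr, with groups and replicate letters from the sample titles. The deposited unnormalized values are log2 probe intensities without background subtraction, judging by their range. Per the file headers, each sample has a deposited column of detection p-values. The authors' processed log2 values, normalized by a method that the sources used here do not give, served as an alternative. Per the submitters' processing notes lumi was used, with no role stated. Values were missing from 4 of 48803 rows.

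Background was corrected with neqc (limma 3.58.1 in R 4.3.3, offset 16, quantile normalization), which infers the negative controls from detection p-values. Symbols came from a platform annotation, in which 20691 probes are not listed, and were checked by gene identifier against RefSeq genes of GRCh38.p14. No member symbol changed. The fit (lmFit and eBayes, two-sided) ran on 13423 kept probes, each probe its own feature since members are probes. It was also tested on simulated data drawn from its own variance model, which cannot show whether that model holds for these arrays. The 95% intervals come from the fit to the arrays. Members and lists were chosen with earlier results of these data known. Named members are the 6 largest differences in each direction, the 8 smallest p, genes with several kept probes, non-overlapping members and the MRPS18 set, plus the 2 smallest p of each other list. MRPL12, MRPL41, MRPL58, MRPS22, DAP3, CHCHD1, TUFM, NRF1, PPARGC1A and the head-to-head partners were named after their values were seen. Nothing says that the triplicate transfections were made on separate days. The p-values set a group difference against the spread of these cultures within a group, which need not be the spread between separate experiments. The number of arrays limits the precision. Alternatives covered the detection filter, background correction, scaling, the authors' values, 1 feature per gene and leaving out each array.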

Additional observations from a re-analysis of the deposited data

How the results depend on the processing

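No member probe passed the threshold under any of the 13 alternatives run. The median log2 difference of members ranged from −0.033 to −0.0022 over the 7 alternatives that keep all arrays, and from −0.036 to 0.034 with 1 array left out. The count of members at an unadjusted limma p under 0.05 was 3, became 5 without background correction (6.41% of all kept probes) and ranged from 1 (without LNA-205 replicate E) to 4 with 1 array left out (5.08% to 6.81% of all kept probes). Members without overlap numbered 10 to 13 with all arrays (10.8% to 12.2% of all features tested) and 20 to 27 with 1 array left out, where fewer arrays make separation easier (20% to 23.4% of all kept probes). Over all kept probes 0 passed, and 1, not a member, passed with probes detected on all 6 arrays, without background correction, with median centring, with the authors' values and with the brightest probe per gene; with any 1 array left out 0 passed. The cause was not tested. Of 230 values under alternatives, for the 18 member probes with the largest differences, the smallest p or in the MRPS18 set, 223 kept their sign and passed no threshold, though not their size: MRPL43 ran from −0.44 to −0.067, MRPL10 from −0.32 to −0.067, MRPL4 from −0.23 to −0.092, MRPS23 from 0.12 to 0.43, MRPS25 from 0.17 to 0.43 and MRPS16 from 0.14 to 0.33. The other 7 turned sign: the dimmer MRPS18B probe without LNA-205 replicate F (0.096) or LNA-Scr replicate C (0.19), where leaving out single arrays gave −0.15 to 0.19, and MRPS18C with median centring (−0.019) or without LNA-205 replicate E (−0.027), LNA-205 replicate F (−0.05), LNA-Scr replicate B (−0.020) or LNA-Scr replicate C (−0.082), where leaving out single arrays gave −0.082 to 0.15. The difference of the brighter MRPL33 probe lay between 0.36 and 0.44, and the mean of both MRPL33 probes gave 0.29. The limma adjusted p of these was 0.501 or more. The second MRPL33 probe, at 0.17 in the main fit, was not followed on its own under the alternatives. No paired analysis was possible because no replicate letter occurs in both groups. In the main fit the 95% interval included 0 for every member probe except the 3 with an unadjusted limma p under 0.05. The median standard error of member probes was 0.117, and 3 arrays per group limit what can be detected.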
